A study of Mus musculus with 51 samples.

Results

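Sorted basal cells of the mouse mammary gland were compared between animals that carry the Y541S change in the estrogen receptor gene Esr1 and wild-type (WT) animals, after 4 days of giredestrant. The libraries were chosen by their labels: 3 from Y541S basal cells and 3 from WT basal cells, all from giredestrant-dosed mice, which makes 6 of the 51 RNA sequencing libraries of the series. The series covers mammary populations taken by fluorescence-activated cell sorting from WT, D542G and Y541S mice. Every mouse was 6 months old and had been given estradiol and progesterone (E2, P4) pellets, controls included. The drug groups took 30 mg/kg giredestrant by mouth once a day, and the vehicle groups took a vehicle labelled MCT. The other basal groups drawn on were vehicle-dosed WT, D542G and Y541S cells and giredestrant-dosed D542G cells, 3 libraries each. The vehicle-dosed D542G libraries entered the shared fit of all 18 basal libraries and the length trend, and were not compared with another group. The way the Y541S allele was made, its promoter or Cre driver and its zygosity were not stated in the labels, nor was it stated which libraries came from 1 animal. The p-values therefore measure the spread between libraries within the basal groups, pooled over all 18 libraries. The design text calls these libraries biological replicates. The source field and the extraction text name mature luminal cells for every sample, and the cell type field and title, which name basal cells, were used.

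Esr1 encodes estrogen receptor alpha, a nuclear receptor that binds DNA when estradiol sits in its ligand-binding domain. The Y541S and D542G changes lie in that domain, and the matching changes in human breast cancer keep the receptor active without hormone. Giredestrant is a selective estrogen receptor degrader (SERD), which blocks the receptor and lowers its protein. Basal cells form the outer layer of the mammary ducts. They contract to eject milk, lay down the basement membrane and are known to hold little estrogen receptor, most of which sits in the mature luminal cells of the inner layer.

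The depth was 60128473, 43257484 and 53089455 counts in Y541S libraries 1, 2 and 3, and 26630730, 29616000 and 31707454 counts in WT libraries 1, 2 and 3. The groups did not overlap in depth. Defining markers of basal cells were at high levels in every library, and the basal keratin and hemidesmosome list summed to 16660 to 27390 CPM (counts scaled to the size of the library) in the 6 basal libraries against 930.3 to 3542 CPM in the luminal libraries of the same genotypes and treatment, after scaling over all 51 libraries. Genes with long transcripts were higher relative to short ones in the Y541S libraries. Protein-coding genes were put into 5 equal bins by transcript length, and the median log2 deviation of the longest bin minus that of the shortest was 0.41, 0.60 and 0.47 in the Y541S libraries and -0.005, 0.11 and -0.01 in the WT libraries, against -0.34 to 0.14 in the other 12 basal libraries. Across 12395 protein-coding genes the log2 ratio of Y541S to WT and transcript length had a Spearman correlation of 0.33, which describes genes within these libraries and not replicates. Mitochondrially encoded genes, whose share is often read as a sign of RNA or cell quality, summed to 4998 to 6087 CPM in Y541S and 6415 to 8295 CPM in WT. All 12 tested had negative log2 ratios (median -0.67), and 9 of the 12 had every Y541S library below every WT library. Of the 12, 1 gene, mt-Co3, was called. It was not called without WT library 2 or 3 or Y541S library 1 or 2 (adjusted p 0.0637 to 0.1). In a fit with the length and GC trends removed, the median was -0.29 and 0 were called (mt-Co3, adjusted p = 0.0817 by edgeR). No RNA quality value is given in the labels, and the part of these trends in the gene results below was not tested beyond the fit with the length trend removed, whose values are given with the gene groups of long transcripts.

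**Figure D1:**
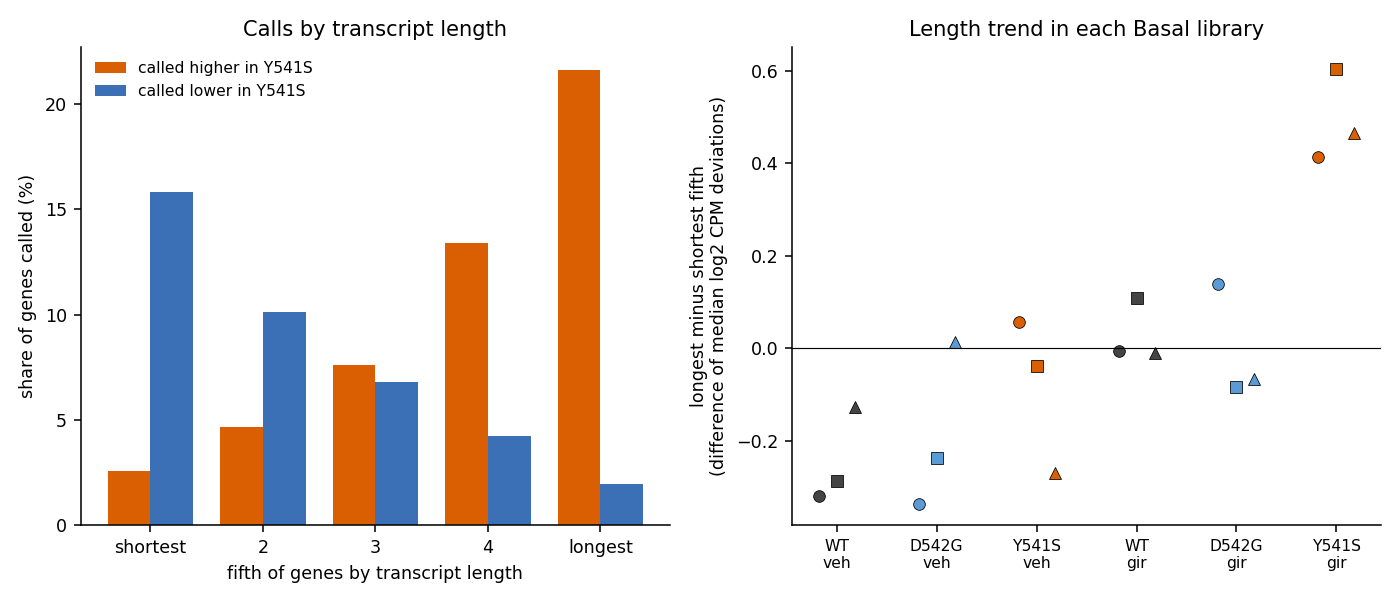
Calls by transcript length and the length trend in each basal library. The left panel shows the percentage of tested protein-coding genes called higher (orange) or lower (blue) in Y541S in 5 bins of transcript length, and the right panel shows, for each of the 18 basal libraries (circle, square and triangle for libraries 1, 2 and 3), the median log2 CPM deviation of the longest bin minus that of the shortest. Calls of higher genes run from 2.58% in the shortest bin to 21.6% in the longest, and the 3 Y541S giredestrant libraries sit at 0.41 to 0.60, above the other 15.

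Of 17173 genes tested with edgeR's quasi-likelihood test on 18 basal libraries, 2397 passed a Benjamini-Hochberg adjusted p of 0.05, which is 14% of those tested. Of these, 1304 were higher in Y541S (7.59%) and 1093 were lower (6.36%), so that 54.4% of the calls were higher. The share of calls that were higher was 65.6% with no filter on low counts, 65.2% with the 6 libraries alone and 66.7% with all 51 libraries. The 3 Y541S and 3 WT libraries did not overlap in CPM at 2337 of the called genes, against 33.7% of all genes tested. The count fell to 1189 without Y541S library 2, 1276 without Y541S library 1, 1248 without WT library 1 and 1436 without WT library 2. With the length and GC trends removed, 1882 genes passed, 1000 higher and 882 lower, and 1510 of them were among the 2397. In the vehicle arm the same comparison, made with other libraries, called 27 genes (0.157%), 19 higher (0.111%) and 8 lower (0.0466%).

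**Figure D2:**
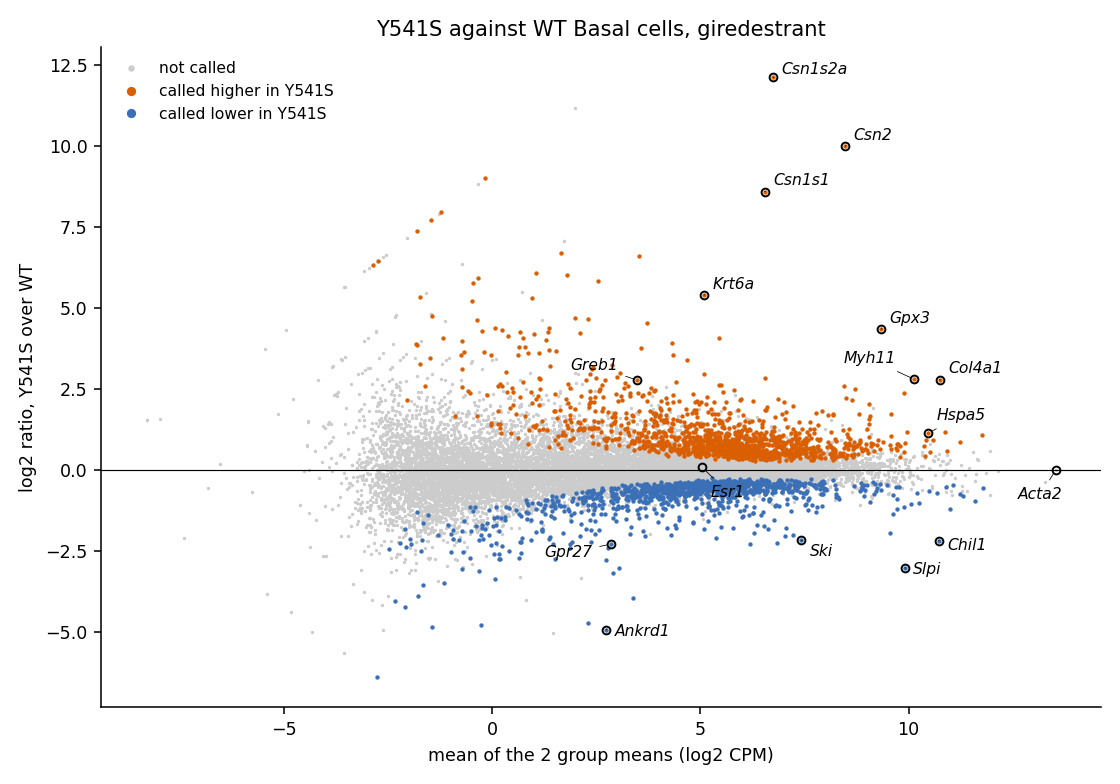
Log2 ratio of Y541S to WT (vertical axis) against the mean of the 2 group means in log2 CPM (horizontal axis) for the 17173 tested genes in giredestrant-dosed basal cells. Orange points were called higher (1304 genes) and blue points lower (1093 genes) at an adjusted p of 0.05 by edgeR, grey points were not called, and ringed points are genes described in the text.

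Esr1 (ENSMUSG00000019768, chr10:4611593-5005614 on GRCm38) did not pass the test. Its level was 24.11, 46.26 and 31.12 CPM in the 3 Y541S libraries and 39.02, 29.87 and 27.7 CPM in the 3 WT libraries, a log2 ratio of 0.07 ± 0.27 (SE, adjusted p = 0.894). The groups overlapped, and the sign turned to -0.21 without Y541S library 2, -0.02 without WT library 3 and -0.17 with the length trend removed. The count covers the whole gene, so it gives the level of Esr1 RNA and does not show the allele.

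Of 24 tested genes in a list of estrogen receptor targets, 5 were higher in Y541S and 0 were lower, against 7.59% higher and 6.36% lower among all genes tested, with a median log2 ratio of 0.31 against -0.025. Greb1 (chr12:16670615-16800886), a growth regulator that is among the most used readouts of estrogen receptor activity, stood at 29.65, 20.08 and 8.426 CPM in Y541S and 3.514, 2.501 and 2.504 CPM in WT. It rose 6.83-fold (log2 ratio 2.77 ± 0.36, adjusted p = 0.000441 by edgeR), and its lowest Y541S library was above its highest WT library. In vehicle-dosed cells Greb1 was at 17.39, 16.68 and 25.06 CPM in Y541S and 15.1, 13.67 and 19.01 CPM in WT. The Y541S levels after giredestrant thus spanned those of both vehicle groups, whereas the WT levels lay below them. Ccnd1, which encodes the G1 cyclin D1, was at 75.87, 74.87 and 70.51 CPM in Y541S and 19.94, 15.89 and 40.81 CPM in WT, a rise of 1.53 ± 0.28 on the log2 scale (adjusted p = 0.00301). The remaining 3 calls were less steady. Rerg (adjusted p = 0.018) was not called without WT library 2 (0.0754) or Y541S library 2 (0.0688). Stc2 (0.0285) was lost without WT library 1 (0.106) or 2 (0.108) or Y541S library 1 (0.108) or 2 (0.0746), and Pgr, the progesterone receptor gene (0.027), without WT library 1 (0.111) or 2 (0.113) or Y541S library 1 (0.0753) or 3 (0.0799). Pgr was also lost with the length trend removed (0.183) and with all 51 libraries (0.118). With the 6 libraries fitted alone, Pgr (0.0854) and Stc2 (0.0522) were both lost. The list count was 3 without WT library 1, Y541S library 1 or Y541S library 2, 2 without WT library 2 and 3 with the 6 libraries fitted alone, and it was 7 higher and 1 lower without WT library 3. Areg, the estrogen-induced ligand amphiregulin, was at 41, 65.7 and 104.2 CPM in Y541S and 22.01, 4.438 and 33.42 CPM in WT and did not pass (adjusted p = 0.0809).

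Among called genes above 10 CPM in the higher group, with no overlap between libraries and with predicted genes, pseudogenes and ribosomal, histone and immunoglobulin genes left out, caseins showed the largest ratios. Caseins are the main milk proteins, made in luminal alveolar cells under prolactin, whose signal is carried to DNA by the transcription factor STAT5. The promoters of the 3 casein genes that passed are printed because each holds 1 match to TTCNNNGAA, the letters of a STAT site, which is its own reverse complement and so was searched on both strands at once. Each window runs from 250 bases before to 50 bases after the RefSeq gene start (GRCm38.p6), 5′ to 3′ along the gene, with the match in capitals.
Csn1s1: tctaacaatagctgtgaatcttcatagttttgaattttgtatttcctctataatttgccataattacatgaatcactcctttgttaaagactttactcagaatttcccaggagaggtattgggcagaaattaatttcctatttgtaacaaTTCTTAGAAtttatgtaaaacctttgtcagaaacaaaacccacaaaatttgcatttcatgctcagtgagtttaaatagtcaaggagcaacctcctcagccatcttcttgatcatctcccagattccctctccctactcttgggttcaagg
Csn2: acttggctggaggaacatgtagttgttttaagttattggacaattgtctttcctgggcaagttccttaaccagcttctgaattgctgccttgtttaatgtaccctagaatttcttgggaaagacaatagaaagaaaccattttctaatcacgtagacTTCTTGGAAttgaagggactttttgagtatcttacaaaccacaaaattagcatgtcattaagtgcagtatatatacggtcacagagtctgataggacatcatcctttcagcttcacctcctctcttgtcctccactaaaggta
Csn1s2a: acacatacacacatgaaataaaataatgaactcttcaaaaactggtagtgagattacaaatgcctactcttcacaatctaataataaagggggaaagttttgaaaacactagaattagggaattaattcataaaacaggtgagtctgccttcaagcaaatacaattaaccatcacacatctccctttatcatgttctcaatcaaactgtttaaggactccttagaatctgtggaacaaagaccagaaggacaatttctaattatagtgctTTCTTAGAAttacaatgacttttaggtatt
The windows are chr5:87665958-87666257 on the plus strand for Csn1s1, chr5:87699376-87699675 on the minus strand for Csn2 and chr5:87774200-87774499 on the plus strand for Csn1s2a. The match begins 100 bases before the start of Csn1s1, 93 before that of Csn2 and 20 after that of Csn1s2a. Of 32851 RefSeq promoters of the same length, 2726 (8.3%) hold the motif, and a match of letters does not show a bound site.

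Csn2, which encodes beta-casein, was at 1234, 895.6 and 10.14 CPM in Y541S and 1.147, 0.6692 and 0.3279 CPM in WT. Csn1s1, alpha-S1-casein, was at 251.8, 301.3 and 5.326 CPM in Y541S and 1.184, 0 and 0.2981 CPM in WT. Y541S library 3 was far below the other two for both genes and still above every WT library. The log2 ratio was 9.99 ± 1.67 for Csn2 (adjusted p = 0.00195) and 8.59 ± 1.62 for Csn1s1 (adjusted p = 0.00366). Csn1s2a had 28009, 6485 and 38 counts in Y541S and 3, 0 and 1 counts in WT, too few to give a fold. Of 13 tested milk and alveolar genes, 7 rose and 0 fell, against 7.59% higher and 6.36% lower among all genes tested. Their median log2 ratio was 1.82. The count of higher genes was 5 without WT library 2, Y541S library 1 or Y541S library 2 and 6 with the length trend removed. It was 8 with the 6 libraries alone or with all 51. Csn1s2b, Csn3 and Wap are on the list and did not pass the filter on low counts. Lalba, the alpha-lactalbumin needed for lactose, was at 3.339, 4.36 and 1.312 CPM in Y541S and 0.03699, 0.2466 and 0.1789 CPM in WT (4.24 ± 0.78, adjusted p = 0.0032). Fasn (chr11:120805846-120824547), fatty acid synthase, was at 500.6, 436.1 and 391 CPM in Y541S and 152.2, 99.72 and 162.1 CPM in WT (1.68 ± 0.23, adjusted p = 0.000564). Unlike the caseins, Fasn was even across the 3 Y541S libraries. Elf5, a luminal transcription factor of the alveolar lineage, did not pass (1.28 ± 0.56, adjusted p = 0.141).

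Luminal cells of the same genotypes and treatment were sequenced too. On CPM scaled over all 51 libraries, Csn2 in Y541S mice was at 10190, 6790 and 54.15 in luminal progenitor (LP) cells and at 1336, 980.1 and 10.79 in basal cells. Library 3 was the lowest in both populations, with the caveat that shared numbers are not stated to mark shared animals. Basal Csn2 as a percentage of LP Csn2 was 13.1, 14.4 and 19.9 in Y541S and 8.42, 9.51 and 3.03 in WT. For comparison, the luminal keratin gene Krt18 in basal libraries was 13.6%, 19.4% and 14.3% of LP in Y541S and 10.8%, 10.4% and 10% in WT, and the luminal adhesion gene Epcam 23.2%, 29.3% and 24.7% against 17.8%, 15% and 15.7%. The luminal genes of the basal libraries thus stood higher in Y541S relative to LP, at each of the 3 genes. Of 10 tested pan-luminal markers, 3 were called higher and 0 lower, against 7.59% and 6.36% of all genes tested. The called junction gene Cldn4 rose 4.47-fold (log2 ratio 2.16) and was called under each of the 14 alternative settings. The called Krt8, another luminal keratin, was at 155.4, 202.9 and 202.5 CPM in Y541S and 98.05, 136.5 and 103.7 CPM in WT (adjusted p = 0.0136), and it lost the call without WT library 1 (0.0655) or Y541S library 2 (0.0554). The pan-luminal count was 1 without WT library 1 or Y541S library 2, 5 with DESeq2 or the 6 libraries alone and 6 with all 51 libraries. Of 9 tested mature luminal markers, 1 was called higher and 0 lower, against the same 7.59% and 6.36%. Of 8 tested luminal progenitor markers, 0 were called higher and 1 lower. The latter count of higher genes was 2 with DESeq2 or the 6 libraries alone and 3 with all 51 libraries. The part of luminal cells or luminal RNA in the casein values was not tested.

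**Figure D3:**
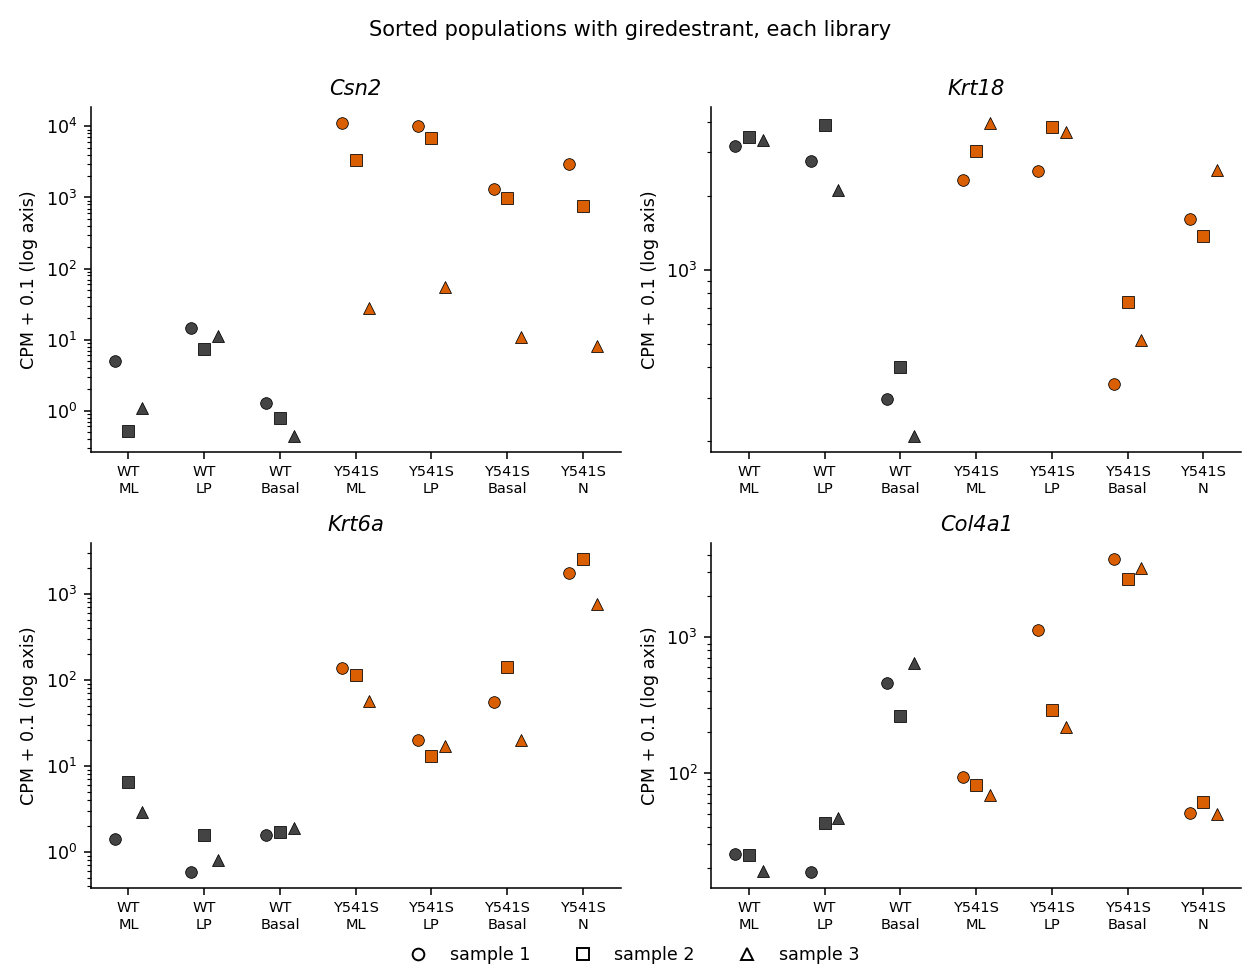
CPM + 0.1 on log axes of 4 genes in the sorted populations of giredestrant-dosed WT and Y541S mice, scaled over all 51 libraries, with circle, square and triangle for libraries 1, 2 and 3. ML is mature luminal, LP luminal progenitor and N a further sorted population. Csn2 in Y541S is at 10.79 to 1336 CPM in basal and 54.15 to 10190 CPM in LP cells, Krt6a is at 767.3 to 2551 CPM in N cells, and Col4a1 is higher in basal than in N cells.

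Genes of the basement membrane were higher in Y541S basal cells. The basement membrane is the sheet of laminins, type IV collagens, nidogens and perlecan on which basal cells sit, and basal cells make much of it. Of 15 tested genes, 12 were higher in Y541S and 0 lower, against 7.59% and 6.36% of all genes, with a median log2 ratio of 1.26. The summed level of the list was 13590 to 16990 CPM in Y541S and 7608 to 8228 CPM in WT. These are long genes, with a median transcript of 6536 bases, and 9 of 15 passed with the length trend removed. Leaving out single libraries gave 9 to 13 calls.

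Col4a1 and Col4a2 encode the alpha-1 and alpha-2 chains of type IV collagen, which assemble into the network of the membrane. They lie head to head on chromosome 8, with Col4a1 on the minus strand (chr8:11198423-11312826) and Col4a2 on the plus strand (chr8:11312805-11449287). The 78 bases that the RefSeq promoter windows of both genes have in common are shown because the pair moved together; they are chr8:11312777-11312854, printed on the plus strand with no motif marked.
Col4a1/Col4a2 shared stretch: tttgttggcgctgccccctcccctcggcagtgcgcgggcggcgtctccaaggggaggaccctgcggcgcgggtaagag
Col4a1 was at 3501, 2447 and 3046 CPM in Y541S and 436.3, 253.1 and 625.3 CPM in WT, and rose 6.84-fold (log2 ratio 2.77 ± 0.49, adjusted p = 0.00265). Col4a2 was at 1762, 1370 and 1607 CPM in Y541S and 286.5, 220 and 416.6 CPM in WT (2.36 ± 0.40, adjusted p = 0.0021). In both genes WT library 2 was the lowest and WT library 3 the highest of the WT libraries, and all 3 Y541S libraries lay above them. With the length trend removed the log2 ratio of Col4a1 was 2.48 ± 0.48 (adjusted p = 0.00557).

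Among the laminins, Lama1 (chr17:67697259-67822647), the alpha-1 chain, was at 737.1, 475.5 and 573.2 CPM in Y541S and 91.69, 45.54 and 162.2 CPM in WT, and rose 5.96-fold (2.58 ± 0.51, adjusted p = 0.00485). Lamc1, the gamma-1 chain common to most laminins, was at 1258, 1011 and 1247 CPM against 338.1, 264.4 and 466.8 CPM (1.72 ± 0.31, adjusted p = 0.00287). Lamb1, a beta chain, was at 860, 722.6 and 746.2 CPM against 281.3, 243.6 and 346.7 CPM (1.42 ± 0.25, adjusted p = 0.0026). The alpha, beta and gamma chains that make up a laminin trimer thus each rose. Lamb2 rose by a log2 ratio of 1.001 ± 0.143 and Lama5 by 1.26 ± 0.23. Hspg2, the heparan sulfate proteoglycan perlecan, was at 322.3, 242.1 and 314.1 CPM in Y541S and 87.25, 96.09 and 133.2 CPM in WT (1.47 ± 0.21, adjusted p = 0.000945). Col7a1, which forms the fibrils that anchor the membrane to the stroma, rose by 1.72 ± 0.41 (adjusted p = 0.0128). These 9 genes passed under each of the 14 alternative settings tried.

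The other 3 calls depended on single libraries. Col4a5 (0.93 ± 0.24, adjusted p = 0.0187), Col4a6 (0.62 ± 0.16, 0.0208) and Nid1, which encodes the laminin-collagen linker nidogen-1 (0.92 ± 0.25, 0.0258), had every Y541S library above every WT library. Col4a5 was not called without WT library 2 (adjusted p = 0.0698) or Y541S library 1 (0.0677), nor with the length trend removed (0.0854). Col4a6 was not called without WT library 2 (0.0817), Y541S library 2 (0.0546) or Y541S library 3 (0.0565), nor with the length trend removed (0.249) or all 51 libraries (0.121). Nid1 was not called without WT library 2 (0.0967), Y541S library 1 (0.0622) or Y541S library 2 (0.0761), nor with the length trend removed (0.0868) or all 51 libraries (0.171). Col18a1, Nid2 and Sparc were not called, and Col18a1 had a log2 ratio of 1.10 ± 0.41 (adjusted p = 0.0841). Of the interstitial collagens and matrix genes, 7 of 17 were called higher and 0 lower, against 7.59% and 6.36% of all genes tested. The count of higher genes was 4 without WT library 2 or Y541S library 2 or with the length trend removed, and 3 with all 51 libraries. Col6a3, a chain of the collagen VI microfibrils, was at 38.07, 45.22 and 28.04 CPM in Y541S and 3.033, 4.403 and 9.54 CPM in WT (2.71 ± 0.48, adjusted p = 0.00257). Fn1, fibronectin, was at 32.53, 107 and 40.88 CPM against 5.03, 7.573 and 10.64 CPM (2.95 ± 0.48, adjusted p = 0.0018), and Y541S library 2 stood above the other two.

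The Y541S libraries were also set against giredestrant-dosed D542G basal cells; this contrast shares the Y541S libraries with the comparison above. It called 1760 genes (10.2%), 1066 higher (6.21%) and 694 lower (4.04%), and 310 without D542G library 2, 661 without Y541S library 1, 864 without Y541S library 2 and 962 without Y541S library 3. Of the 15 basement membrane genes, 10 were higher in Y541S than in D542G and 0 lower, or 5 without D542G library 2. The length trend was present here too. Transcript length and the log2 ratio of Y541S to D542G had a Spearman correlation of 0.38, and 972 genes passed with the trend removed. Lama1 was at 52.05, 25.32 and 100.1 CPM in D542G, with a log2 ratio of Y541S to D542G of 3.33 (adjusted p = 0.00312). Col4a1 was at 392.3, 275.8 and 1020 CPM in D542G, with a log2 ratio of 2.41 (adjusted p = 0.00895). D542G against WT, which shares the WT libraries, called 853 genes (4.97%), 434 higher (2.53%) and 419 lower (2.44%). It gave log2 ratios of -0.76 for Lama1 (adjusted p = 0.41) and 0.36 for Col4a1 (adjusted p = 0.715). In the vehicle arm, the log2 ratio of Y541S to WT was -0.03 for Lama1 (adjusted p = 0.987) and 0.39 for Col4a1 (adjusted p = 0.746).

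**Figure D4:**
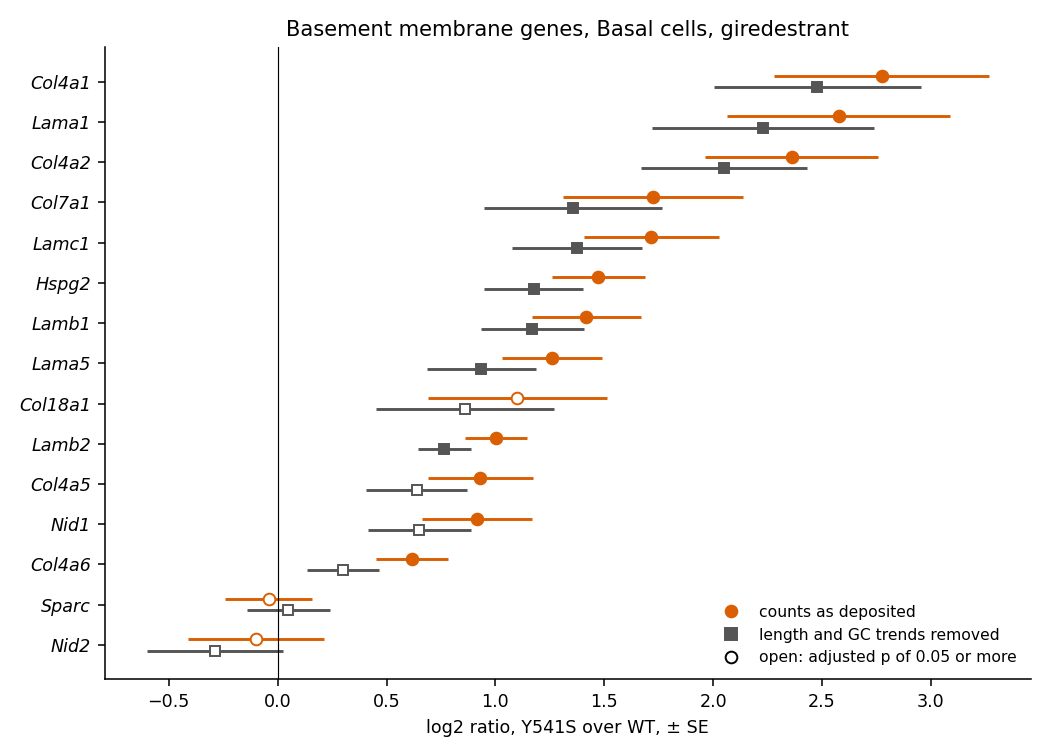
Log2 ratio of Y541S to WT in giredestrant-dosed basal cells for the 15 basement membrane genes, with horizontal bars of ± 1 SE. Orange circles are from the counts as deposited and grey squares from the fit with length and GC trends removed; open symbols did not pass an adjusted p of 0.05. Filled circles mark 12 genes and filled squares 9, all to the right of 0, and Col4a1 moves from 2.77 to 2.48.

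The contractile and keratin genes that define basal cells did not move as a block. Acta2, smooth muscle actin, was at 14560, 10240 and 10680 CPM in Y541S and 10340, 15860 and 9457 CPM in WT, and the groups overlapped (log2 ratio -0.01 ± 0.25, adjusted p = 0.989). Myh11 (chr16:14194535-14291372), the heavy chain of smooth muscle myosin, was at 1957, 1976 and 1937 CPM in Y541S and 272.2, 304.8 and 266.5 CPM in WT. It rose 6.96-fold (2.80 ± 0.33, adjusted p = 0.000273), and the libraries within each group were close together. In vehicle-dosed cells Myh11 was at 471.6, 386.5 and 675.8 CPM in Y541S and 909, 813.8 and 777.7 CPM in WT, the opposite order, which did not pass in that arm (adjusted p = 0.308). The difference between the arms was 3.50 on the log2 scale (adjusted p = 0.00101). D542G giredestrant libraries lay between the others at 689.4, 498.7 and 1561 CPM. Of 16 contractile genes, 2 were called higher, Myh11 and the actin-binding Synpo2, and 0 lower, or 4 without WT library 2; 7.59% of all genes tested were called higher. With the length trend removed the log2 ratio of Myh11 was 2.49 (adjusted p = 0.000832), while Synpo2 was not called (0.0611).

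Of 13 genes for basal keratins and hemidesmosomes, the junctions that tie keratin filaments to the basement membrane, 5 were higher and 1 lower. Among all genes tested, 7.59% were higher and 6.36% lower. Plec, the linker plectin, was at 150.7, 198.4 and 233.2 CPM in Y541S and 71.31, 62.59 and 100.5 CPM in WT (1.31 ± 0.25, adjusted p = 0.00365). Itga6, the integrin alpha-6 that binds laminin and is itself used to sort basal cells, was at 1402, 1215 and 1097 CPM against 697.6, 710.6 and 692.4 CPM (0.82 ± 0.16, adjusted p = 0.00482). Col17a1 and Lama3 were among the other higher members, and with all 51 libraries neither was called (0.127 and 0.285). Lama3 was also not called without WT library 1 (0.0694) or Y541S library 3 (0.067) or with the length trend removed (0.189). Krt14, the main basal keratin, was at 4993, 5652 and 5296 CPM in Y541S and 7832, 11650 and 5822 CPM in WT and did not pass (adjusted p = 0.143). Its partner Krt5 was called lower at 1790, 1695 and 2047 CPM against 3302, 3739 and 2737 CPM (-0.82 ± 0.20, adjusted p = 0.0149). Krt5 lost the call with all 51 libraries in the fit (0.518) and without WT library 2 (0.0569), Y541S library 1 (0.0536) or Y541S library 2 (0.0638). Trp63, the transcription factor p63 of basal epithelia, was at 561.1, 563.3 and 499.3 CPM against 596, 443.1 and 609.3 CPM, and the groups overlapped. Of 13 basal transcription factors and stem cell markers, 3 were higher and 2 lower, or 0 lower without WT library 2 or Y541S library 2 or with all 51 libraries and 1 without Y541S library 1 or 3. Sox9 was at 726.9, 763.8 and 676.6 CPM in Y541S and 390.8, 489.2 and 370 CPM in WT (0.79 ± 0.14, adjusted p = 0.00251), and Nfatc1, a calcium-regulated factor, rose by 0.997 ± 0.206 (adjusted p = 0.00599).

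Krt6a, Epgn and Il33 were among the largest rises. Krt6a (chr15:101689910-101694307), a keratin of activated keratinocytes, was at 50.58, 129.9 and 18.93 CPM in Y541S and 1.406, 1.55 and 1.759 CPM in WT. It rose 42-fold (5.39 ± 0.74, adjusted p = 0.00063), and reads may be split with its close copy Krt6b, which was at 1.178, 2.404 and 0.6277 CPM in Y541S. Epgn, the EGF receptor ligand epigen, was at 25.03, 34.45 and 7.228 CPM against 1.516, 1.057 and 2.355 CPM (3.75 ± 0.57, adjusted p = 0.00111). Il33, an alarm cytokine stored in the nuclei of barrier cells, was at 11.72, 60.73 and 40.32 CPM against 2.515, 1.409 and 3.428 CPM (3.93 ± 0.63, adjusted p = 0.00162). In each of these genes the Y541S libraries were spread widely and lay above all WT libraries. Of 11 squamous and wound keratin genes, 4 were higher and 0 lower, against 7.59% and 6.36% of all genes tested. The count of higher genes was 2 without WT library 2.

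Gpx3 (chr11:54902453-54910377), the secreted glutathione peroxidase, was at 1769, 1564 and 376.3 CPM in Y541S and 59.85, 35.54 and 87.17 CPM in WT, a 20.3-fold difference (4.34 ± 0.64, adjusted p = 0.00104). Vehicle-dosed cells had 2668, 1613 and 1335 CPM in Y541S and 1055, 2070 and 3845 CPM in WT. The WT giredestrant libraries were thus the low ones, and D542G giredestrant libraries, at 1618, 2381 and 945.7 CPM, were not. Hp, the hemoglobin-binding haptoglobin, was at 155.6, 38.39 and 51.01 CPM in Y541S against 7.287, 1.62 and 5.694 CPM in WT (4.07 ± 0.81, adjusted p = 0.00504), with 42.17, 95.28 and 211.9 CPM in vehicle-dosed WT cells. Penk, the opioid precursor proenkephalin, was at 33.64, 31.84 and 10.27 CPM against 0.7028, 2.008 and 0.5664 CPM (4.54 ± 0.93, adjusted p = 0.00556). Il1r2, the decoy receptor for interleukin-1, was at 43.5 and 24.53 CPM in Y541S libraries 1 and 2 and at 0.4565 CPM in library 3, beside 0.037 to 0.4174 CPM in WT. In D542G giredestrant cells Krt6a was at 188.4, 173.6 and 74.41 CPM, a difference from Y541S that did not pass (adjusted p = 0.225). Il33 was at 408.7, 397.4 and 81.37 CPM there, and Y541S minus D542G was -2.98 on the log2 scale (adjusted p = 0.00724).

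These genes were also measured in the other populations of the Y541S mice, on the 51-library scale, in the order of libraries 1, 2 and 3. Krt6a was at 1719, 2551 and 767.3 CPM in N and 54.79, 142.2 and 20.15 CPM in basal cells, with 136, 112.2 and 56.35 CPM in mature luminal (ML) cells. Gpx3 was at 38990, 19820 and 5953 CPM in N and 17650, 10990 and 2434 CPM in ML cells. Il33 was at 227.6, 1170 and 1923 CPM in N and 9.568, 47.07 and 67.54 CPM in ML cells. Penk was at 724.1, 163.3 and 34.96 CPM in N and 191.8, 546.4 and 53.86 CPM in ML cells, and so was higher in ML than in N in libraries 2 and 3. The part of N or ML cells or their RNA in the basal values was not tested. Col4a1 was at 50.65, 61.6 and 50.2 CPM in N, below every basal library of the Y541S mice.

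**Figure D5:**
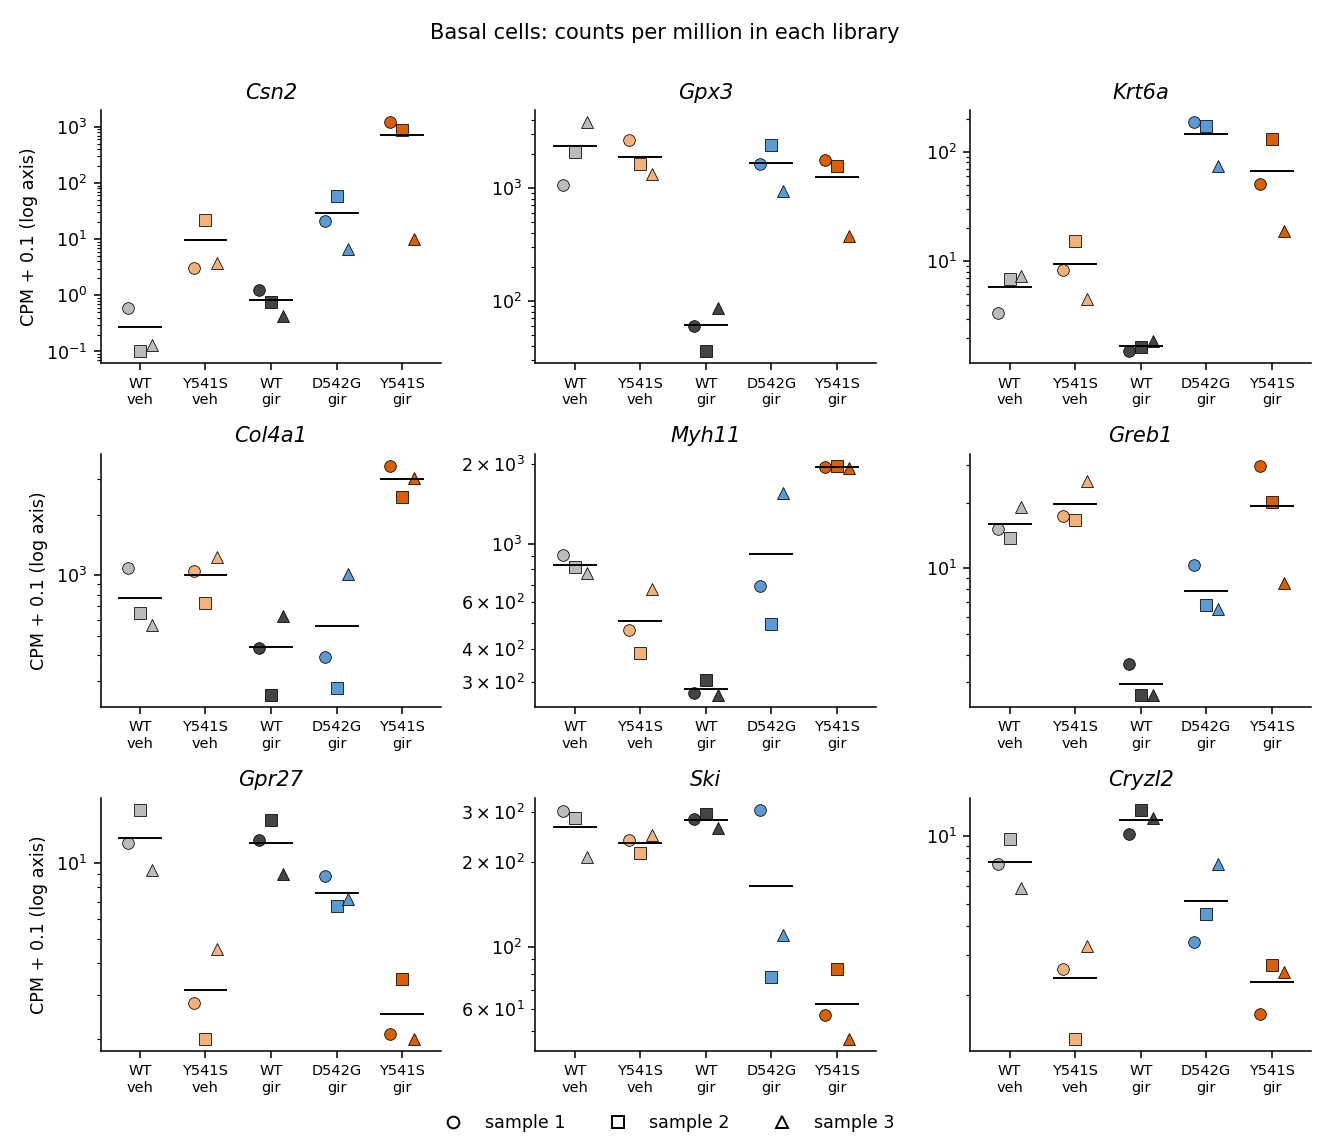
CPM + 0.1 on log axes of 9 genes in basal cells of 5 groups (veh, vehicle; gir, giredestrant), with circle, square and triangle for libraries 1, 2 and 3 and a line at the group mean. Myh11 is tight at 1937 to 1976 CPM in Y541S giredestrant cells, Gpx3 is low in WT giredestrant cells at 35.54 to 87.17 CPM, and Ski is at 46.74 to 82.86 CPM in Y541S giredestrant cells, beside 77.65 and 109.6 CPM in 2 of the 3 D542G giredestrant libraries.

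Some genes of the stress response of the endoplasmic reticulum and of cholesterol synthesis were higher, and most members of both lists were not called. Among all genes tested, 7.59% were higher and 6.36% lower. Of 15 genes of the unfolded protein and amino acid stress response, 6 were higher and 0 lower, or 3 without Y541S library 1. Hspa5, which encodes the reticulum chaperone BiP, was at 2114, 2094 and 1661 CPM in Y541S and 880.8, 916.9 and 874.5 CPM in WT (1.14 ± 0.14, adjusted p = 0.00038). Creld2, a secreted stress protein, was at 51.44, 50.2 and 46.56 CPM against 31.88, 32.37 and 31.39 CPM (0.63 ± 0.11, adjusted p = 0.00279). Hsp90b1, the chaperone GRP94, rose by 0.83 ± 0.17 (adjusted p = 0.007), with 30.9% of its span overlapped by other genes. The kit does not mark strand, so reads of overlapping genes cannot be told apart. The members that moved were chaperones and their partners, and 9 members were not called. Of 22 cholesterol genes, 5 were higher and 0 lower. The count of higher genes was 8 without WT library 3 and 4 with the 6 libraries alone. It was also 4 without WT library 1, WT library 2 or Y541S library 1. Sqle, squalene epoxidase, was at 118.9, 92.19 and 107 CPM in Y541S and 46.27, 42.51 and 67.23 CPM in WT (1.03 ± 0.17, adjusted p = 0.00195).

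Among signalling genes, Csf1, the growth factor of macrophages, was at 474.2, 437.4 and 324.1 CPM in Y541S and 134.9, 110.5 and 133.9 CPM in WT (1.70 ± 0.29, adjusted p = 0.00228). Ltbp1, which stores latent TGF-beta in the matrix, was at 141.9, 130.3 and 103 CPM against 21.86, 27.09 and 37.95 CPM (2.11 ± 0.35, adjusted p = 0.0018). Cspg4, the proteoglycan NG2, which also marks pericytes, was at 80.81, 104.6 and 51.03 CPM against 11.06, 17.86 and 16.04 CPM (2.39 ± 0.32, adjusted p = 0.000556), and it was also called higher in the vehicle arm (adjusted p = 0.029, called in 9 of 14 alternatives). Of 13 Notch pathway genes, 4 were higher and 2 lower, or 2 higher and 3 lower with the length trend removed. Among all genes tested, 7.59% were higher and 6.36% lower. The receptor gene Notch1 was at 121.1, 148.8 and 93.39 CPM in Y541S and 43.05, 51.36 and 70.09 CPM in WT (1.14 ± 0.23, adjusted p = 0.00552). Hes1, a repressor that Notch induces, moved the other way, at 46.19, 55.83 and 44.21 CPM against 113.4, 136.8 and 75.49 CPM (-1.16 ± 0.25, adjusted p = 0.00775). Of 14 EGF receptor family genes, 3 were higher and 0 lower, or 4 and 1 with DESeq2. The count of higher genes was 2 without WT library 1, WT library 2 or Y541S library 1 or with the length trend removed.

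Lists of hormone and growth factor targets gave calls that rested on single libraries. Of 12 targets of the progesterone and glucocorticoid receptors, 4 were higher and 1 lower, against 7.59% and 6.36% of all genes tested. The count of higher genes was 0 without WT library 1 or Y541S library 1, 1 without Y541S library 2 and 2 without WT library 2, WT library 3 or Y541S library 3. Fkbp5, a cochaperone of these receptors, was at 76.75, 56.42 and 36.79 CPM in Y541S and 15.57, 11.94 and 21.85 CPM in WT (1.78 ± 0.43, adjusted p = 0.0127), with adjusted p of 0.0532 without WT library 1, 0.0591 without WT library 2 and 0.0589 without Y541S library 1. Rspo1, a Wnt-enhancing ligand of the mammary gland, was at 82.17, 60.83 and 25.72 CPM against 18.05, 11.45 and 11.48 CPM (adjusted p = 0.031). Its groups did not overlap, and its adjusted p lay at 0.0624 to 0.116 without WT library 1, 2 or 3 or Y541S library 1 or 2. Of 19 genes of the TGF-beta, activin and BMP pathways, 4 were higher and 4 lower. The 4 lower ones were Id1, Id2 and Id3, which BMP signals induce, and Smad6, an inhibitor of BMP signals. Id1 was at 27.24, 50.72 and 36.5 CPM in Y541S and 123.3, 184.7 and 66.81 CPM in WT (-1.71 ± 0.50, adjusted p = 0.0312). The count of lower genes in the list was 0 without WT library 1, WT library 2, Y541S library 1 or Y541S library 2 and 1 without Y541S library 3, while that of higher genes was 2 without WT library 1, WT library 2 or Y541S library 1 and 1 without Y541S library 2. With the length trend removed, 1 gene was higher and 2 were lower.

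Genes that were lower in Y541S had mixed roles. Ski (chr4:155154075-155222592), a corepressor that restrains SMAD proteins of TGF-beta signalling, was at 57.09, 82.86 and 46.74 CPM in Y541S and 284.2, 295.3 and 264.1 CPM in WT, and was 4.52-fold lower (-2.18 ± 0.36, adjusted p = 0.00195). Vehicle-dosed cells held 214.3 to 248.7 CPM in Y541S and 207.1 to 302.3 CPM in WT. The D542G giredestrant libraries were at 306.4, 77.65 and 109.6 CPM, so that libraries 2 and 3 of D542G were also below every vehicle and WT library. Ankrd1, a target of the YAP coactivator, was at 0.3867, 0.5185 and 0.3614 CPM in Y541S and 6.214, 27.26 and 5.337 CPM in WT (-4.93 ± 0.93, adjusted p = 0.00361). Wnt9a, a Wnt ligand, was at 1.072, 2.427 and 1.902 CPM against 10.76, 27.33 and 6.291 CPM (-3.04 ± 0.67, adjusted p = 0.00858). WT library 2 was the highest in both genes, and the groups did not overlap. Prtn3, a serine protease best known from neutrophils, was at 1.353, 1.249 and 2.435 CPM against 16.09, 11.48 and 7.543 CPM (-2.80 ± 0.41, adjusted p = 0.00104). Cryzl2 was at 1.547, 2.616 and 2.416 CPM against 10.13, 12.93 and 11.84 CPM (-2.41 on the log2 scale), and the groups were far apart. C4b, a complement component, was at 43.15, 33.65 and 42.23 CPM against 221.8, 296.7 and 54.8 CPM, where WT library 3 came close to the Y541S libraries. Gpr27, an orphan receptor, was called lower in both arms, with log2 ratios of -2.30 after giredestrant and -2.03 after vehicle, the latter called in 7 of 14 alternatives. Slpi, a secreted inhibitor of proteases, was at 114.8, 158.8 and 357.8 CPM against 2039, 2434 and 681.7 CPM, and its call was lost without Y541S library 1 (0.062) or 2 (0.0622). Chil1, a secreted chitinase-like protein, was at 529.5, 681.8 and 612.1 CPM against 4983, 2237 and 1076 CPM (-2.19 ± 0.53, adjusted p = 0.0139), and it was not called without WT library 1 (0.0891) or Y541S library 1 (0.0587). Of 14 immediate early genes, 1 was higher and 5 lower, against 7.59% and 6.36% of all genes tested. The count of lower genes was 0 without WT library 1, WT library 2 or Y541S library 1. It was 2 without Y541S library 2 or 3, with the length trend removed, with the 6 libraries alone or with all 51.

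Markers of other cells that a basal sort could hold were measured as well. In bulk RNA, fewer cells of a type and less RNA per cell cannot be told apart. Among all genes tested, 7.59% were higher and 6.36% lower, which is the background for each marker list here. Of 12 fibroblast markers, 5 were called higher and 0 lower, or 2 without WT library 1, WT library 2, Y541S library 1 or Y541S library 2, 3 with the length trend removed and 1 with all 51 libraries. Dcn, the matrix proteoglycan decorin, was at 993, 814.5 and 628.9 CPM in Y541S and 463.8, 306.7 and 515 CPM in WT (adjusted p = 0.0241). It was not called without any of those 4 libraries (0.0552, 0.0919, 0.0982 and 0.0614 in that order), nor with all 51 libraries (0.243). Pdgfra, the fibroblast receptor, was at 10.37, 21.78 and 19.82 CPM against 14.94, 12.61 and 8.825 CPM. The fibroblast list summed to 1503 to 2036 CPM in Y541S and 639.5 to 1034 CPM in WT. Of 13 endothelial markers, 4 were higher and 0 lower, or 0 without WT library 1 or Y541S library 2, 1 without Y541S library 1, 2 without WT library 2 or 3 or with the length trend removed, and 7 without Y541S library 3. The called ones were Vwf (1.62 ± 0.45 on the log2 scale, adjusted p = 0.0248), Plvap (1.56 ± 0.38, 0.0146), Ptprb (1.55 ± 0.41, 0.0203) and Kdr (1.40 ± 0.37, 0.0202), which encode von Willebrand factor, a protein of endothelial pores, a vascular phosphatase and a receptor of VEGF. Vwf was at 191.7, 226.1 and 83.92 CPM in Y541S and 52.67, 54.31 and 56.64 CPM in WT, and Plvap at 257.7, 236.2 and 89.1 CPM against 63.21, 72.35 and 62.16 CPM. Ptprb was at 58.4, 89.25 and 47.65 CPM against 16.79, 29.62 and 20.36 CPM, and Kdr at 56.65, 59.69 and 22.69 CPM against 17.31, 15.74 and 19.53 CPM. Every Y541S library was above every WT library for these 4 genes, and Y541S library 3 was the lowest of the 3. Without WT library 1 or Y541S library 2 none of the 4 was called, with adjusted p from 0.0586 to 0.105. Pecam1, an endothelial junction protein, was at 134.9, 141.7 and 54.93 CPM against 44.75, 69.36 and 44.69 CPM and did not pass (adjusted p = 0.0729). The endothelial list summed to 463.5 to 1138 CPM in Y541S and 356.6 to 477.8 CPM in WT. Of 8 pericyte markers 2 were higher, Cspg4 with the values given above and Notch3 (1.34 on the log2 scale, adjusted p = 0.0329, with part of its span shared with another gene), or 1 without WT library 1, WT library 2, Y541S library 2 or Y541S library 3 or with the length trend removed. The pericyte list summed to 222.2 to 356.8 CPM in Y541S and 144.1 to 284.5 CPM in WT, and Pdgfrb overlapped at 30.17 to 44.4 CPM against 37.3 to 40.93 CPM. None of 13 immune or 6 adipocyte markers was called by edgeR at this threshold, and the pan-leukocyte Ptprc was at 3.164, 6.269 and 5.84 CPM against 3.847, 1.796 and 1.193 CPM. The immune list still summed higher in every Y541S library, at 357.8 to 673.3 CPM against 249.5 to 349.8 CPM in WT. The adipocyte list overlapped, at 162.2 to 406.8 CPM against 151.8 to 250.6 CPM. Basement membrane genes are also made by endothelial cells and fibroblasts, and the part of these cells in the values above was not tested.

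Genes of mitosis and DNA replication did not give a stable count of calls, set against 7.59% called higher among all genes tested. All 25 tested mitosis genes had positive log2 ratios, with a median of 0.98, yet 2 passed, or 1 with the length trend removed and 0 with the 6 libraries alone, against 24 without WT library 3 and 0 without WT library 1, WT library 2 or Y541S library 3. All 16 tested DNA replication genes also had positive log2 ratios, with a median of 0.93, and 1 passed. The count was 13 without WT library 3 and 6 with DESeq2. It was 0 without WT library 1, WT library 2, Y541S library 1 or Y541S library 3 or with all 51 libraries. Of 22 interferon response genes, 0 passed in either direction by edgeR.

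The effect of the genotype was compared between the arms by an interaction term, (Y541S minus WT after giredestrant) minus (Y541S minus WT after vehicle). It passed for 766 genes (4.46%), 473 positive (2.75%) and 293 negative (1.71%), with 278 to 1095 when single libraries were left out. Among giredestrant libraries it was 278 without WT library 1, 323 without Y541S library 2 and 426 without Y541S library 1. Among vehicle libraries it was 362 without Y541S library 2, 418 without Y541S library 3, 457 without WT library 3 and 485 without WT library 1. Of the 2397 genes called after giredestrant, 616 (25.7%) also passed the interaction, all with the same sign. The interaction holds the same giredestrant libraries, so this overlap and the shared sign are partly built in and are not independent support. The vehicle comparison called 27 genes at the adjusted threshold and 2529 at an unadjusted p of 0.05. It gave 0 without WT vehicle library 2 or Y541S vehicle library 1 or 2, 1 without WT vehicle library 3 and 100 without Y541S vehicle library 3. Of the 27, 10 were called in the same direction after giredestrant, among them Gpr27, Cspg4 and Nid1, and Gtf2f1 was called in the opposite one. Of the basement membrane genes, 5 passed the interaction, all positive, or 1 without WT giredestrant library 1, 2 without WT giredestrant library 2, Y541S giredestrant library 1 or 2, WT vehicle library 1 or Y541S vehicle library 1 or 2, and 3 with the length trend removed. Hspg2 had an interaction of 1.73 (adjusted p = 0.00642), with 160.9, 137.6 and 150.3 CPM in vehicle-dosed WT and 135.3, 109.1 and 131.7 CPM in vehicle-dosed Y541S cells. Hspa5 had 1.35 (adjusted p = 0.00207), with 1517, 1196 and 1206 CPM in vehicle-dosed WT and 1053, 1130 and 1184 CPM in vehicle-dosed Y541S cells. For both genes the WT libraries after giredestrant lay below, and the Y541S libraries above, every vehicle library of the same genotype, and the difference between treatments within a genotype was not tested.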

How the data were processed

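RNA was measured by sequencing of Nextera XT libraries, which mark no strand, from sorted cells, per the labels' protocols. The authors deposited raw gene counts per library, whose whole numbers sum to different totals, and RPKM values beside them. The deposited RPKM values were not used. Per the submitters' processing notes the files use GRCm38; no source used here names the aligner, counter or annotation. Gene symbols, positions, overlaps and transcript lengths (longest transcript) came from GENCODE M21. Counts of the 18 basal libraries were filtered with filterByExpr, scaled by TMM and tested with edgeR 4.0.16 (R 4.3.3; quasi-likelihood F test, 1 mean per group), with Benjamini-Hochberg adjustment over 17173 genes and a threshold of 0.05. CPM values carry the TMM factors of that fit, except where scaling over 51 libraries is stated. The ± after a log2 ratio is its SE. Levels are given per library with n = 3 per group. Reads were not collapsed to molecules, so that counting error alone understates the spread, and depth differed between the groups. The script was tested on simulated data.

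Members and gene lists were chosen with earlier results of these data known. Named genes are Esr1, the 12 largest rises and 12 largest falls among the called genes whose higher group averaged 10 CPM or more and whose libraries did not overlap (predicted genes, pseudogenes, ribosomal, histone and immunoglobulin genes left out), and up to 4 called members of each list with the largest ratios, with some left out for length; a few list members are counted but not reported by name here. Members of the lists named as not called, and the calls beyond 4 in the basement membrane list, were added after their values were seen. Alternatives were RLE scaling, no filter, DESeq2 1.42.0, other sets of libraries in the fit, the replicate block and each library left out. Thinning to equal depth and removal of length and GC trends were added after the data were seen. Replicates differed by more than sampling noise in a chi-square comparison, and none was merged.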

Additional observations from a re-analysis of the deposited data

Results flagged for a closer look

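The difference between Y541S and WT basal cells was not the same after giredestrant as after vehicle for the 35 named genes given here, of 106 named. Apart from Esr1, the named genes were picked for their call after giredestrant. The interaction holds those same giredestrant libraries, so this choice favours a pass. Each of the 35 passed an adjusted p of 0.05 by edgeR for the interaction, given here on the log2 scale in parentheses as (Y541S minus WT after giredestrant) minus (Y541S minus WT after vehicle). Among matrix and junction genes these were Lama1 (2.61), Col4a2 (2.29), Col17a1 (1.85), Col6a3 (3.06), Fn1 (3.83), Fbn1 (1.41), Plec (1.79) and Cldn4 (2.43). Among keratins and wound or growth factor genes they were Krt4 (5.38), Krt6a (4.71), Krt6b (4.63), Epgn (4.03), Csf1 (1.63), Csf3 (3.86) and Igf2r (1.29). The contractile gene Myh11 had 3.50, and the secreted proteins Gpx3 and Hp had 4.66 and 4.56. Estrogen receptor targets and cell cycle genes on the list were Greb1 (2.47), Ccnd1 (2.06), Mcm4 (1.48) and Mki67 (4.42). Chaperone and sterol genes were Hspa5 (1.35), Hsp90b1 (1.13), Creld2 (0.998) and Sqle (1.31). Transcription factor genes were Sox9 (1.08), Nfatc1 (1.996), Snai2 (0.92) and Fosl1 (1.52), and endothelial markers were Plvap (2.44), Ptprb (2.36) and Vwf (2.44). The interaction was negative for Prtn3 (-3.18) and Ski (-1.996). The interaction of 16 of these genes passed in each of 20 alternatives. For the others the call was kept by Lama1 in 8, Krt6b and Snai2 in 9, Vwf in 10, Cldn4 and Ski in 11, Csf1, Mcm4 and Ptprb in 12, Col4a2 in 13, Hp in 14, Plvap in 15, Fbn1 and Igf2r in 17, Mki67 in 18 and Col17a1, Col6a3, Greb1 and Hsp90b1 in 19 of the 20.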

How the results depend on the processing

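Calls after giredestrant went from 2397 to 1882 with the length and GC trends removed and to 3321 with DESeq2, and ranged from 1189 to 2407 when single libraries were left out. Of 106 named genes, 42 lost their call without WT library 1 and 42 without Y541S library 1, 39 and 38 without the second libraries, and 14 and 13 without the third. With all 51 libraries in the fit 19 named genes lost it, and with the trends removed 18. Of 105 called named genes, 46 were called under all alternatives. The Esr1 ratio turned to -0.17 with the trends removed and ranged from -0.21 to 0.27 with single libraries left out, where it was -0.02 without WT library 3. Vehicle calls numbered 27, and 82 with RLE scaling, 158 with no filter, 689 with DESeq2, 1 with the compared groups alone, 71 with all 51 libraries, 14 with the replicate block, 57 after thinning and 91 with the trends removed, and ranged from 0 to 100 with single libraries left out. The interaction had 1619 calls with DESeq2 and 278 to 1095 with single libraries left out. Y541S against D542G had 2871 with DESeq2, 972 with the trends removed and 310 to 1673 with single libraries left out. The cause of these shifts was not tested. Same-numbered Y541S and WT libraries had correlations of -0.03, 0.20 and 0.14 in their deviations, and different-numbered ones -0.19 to 0.08. The genotypes come from different mice, so these values cannot show whether a number marks an animal. Whether a number marks a shared batch was not tested. The main fit left the numbers out, and with the replicate block the giredestrant comparison called 2179 genes. Depth limits genes with few counts, such as Csn1s2a in WT.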
